A study of Homo sapiens with 9 samples.

Results

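The genes described here are 10 AP-1 and immediate early genes: the FOS family (FOS, FOSB, FOSL1 and FOSL2), the JUN family (JUN, JUNB and JUND), and EGR1, IER2 and IER3. They were taken by gene name from a table of counts for 58735 genes, and each name matched 1 row. Counts came from poly-A RNA sequencing of OVCAR3, an established human ovarian cancer line, grown with bovine insulin and serum and collected after 72 h in culture. The labels give 3 groups of 3 samples: cells with a scramble hairpin, labelled wild type, and GPX3 knock-down cells with either of 2 short hairpin RNAs, #76 or #78, called sh76 and sh78 here. GPX3 encodes a secreted glutathione peroxidase. All 9 samples carried a hairpin, so no hairpin-free cells are compared here. The stated purpose was to learn the role of GPX3 in these cells. The labels do not say whether replicates were separate cultures or transductions, so p-values measure only the spread between these samples.

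Immediate early genes are transcribed within minutes of a growth factor, serum or stress signal, without new protein synthesis, and most of their mRNAs are short-lived. Signals through the MAP kinases ERK, JNK and p38 reach their promoters through serum response factor with its ternary complex partners, and through proteins of the CREB and ATF families. FOS proteins pair with JUN proteins as leucine-zipper dimers called AP-1, which bind TGACTCA or the related TGACGTCA in DNA; FOS proteins need a JUN partner to bind, whereas JUN proteins can also pair with each other. EGR1 is a zinc finger factor that the same signals induce. IER2 and IER3 are small early-response proteins, and IER3 is known for effects on cell survival.

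The targeted gene and the libraries were checked first. GPX3 stood at 173, 109 and 117 CPM (counts scaled to library size, with TMM factors) in scramble replicates 1 to 3, at 56.8, 55.2 and 55.5 CPM in sh76, and at 35.3, 28.4 and 28.3 CPM in sh78, so both hairpin groups lay below all scramble libraries. Total counts ran from 14652965 to 21327562, and mitochondrial transcripts took 4.242% to 5.164% of a library. A marker list of 8 epithelial ovarian carcinoma genes was found in all 9 libraries, with a summed level of 11600 to 12410 CPM in scramble, 10470 to 11360 CPM in sh76 and 9601 to 10180 CPM in sh78. The 5 fibroblast markers summed to 27.5 to 39.2 CPM in scramble, 30.8 to 52.6 CPM in sh76 and 34.6 to 47.1 CPM in sh78, with DCN and LUM at 0 in all scramble libraries. The 4 endothelial markers summed to 17.04 to 19.87, 18.1 to 24.2 and 23.1 to 31.9 CPM in the same order, and the 4 leukocyte markers to at most 3.05 CPM in any library, with CD3E and CD68 at 0 in scramble and sh76. The epithelial sum lay below the scramble range in both hairpin groups, mostly through KRT8 (means of 5562, 4809 and 3878 CPM in scramble, sh76 and sh78) and KRT18 (2177, 1717 and 1579 CPM), while MUC16 and KRT7 had higher means in both hairpin groups than in scramble. EPCAM averaged 317, 282 and 252 CPM and PAX8 902, 744 and 960 CPM in the same order. KRT8, KRT18 and EPCAM were called lower in sh78 (edgeR adjusted p 0.00259, 0.0105 and 0.00387). PAX8 was called lower in sh76 (edgeR adjusted p 0.0196) and higher in sh78 against sh76 (0.00386). Of the 8 epithelial markers, 1 was thus called lower in sh76 and 3 in sh78, beside 2.16% and 2.56% of all genes. MUC16, KRT7, WT1 and MSLN were not called. The endothelial sum in sh78 lay above the scramble range, and KDR was called higher with both hairpins (edgeR adjusted p 0.0396 and 0.00087). KDR averaged 9.39, 13.7 and 18.8 CPM in scramble, sh76 and sh78, while VWF averaged 8.25, 7.27 and 7.95 CPM. PECAM1 (0.347, 0.360 and 0.198 CPM) and CDH5 (0.399, 0.408 and 0.816 CPM) were near 0. KDR was thus the only endothelial marker called with either hairpin. The part of these markers in the results below was not tested. In bulk RNA, fewer cells of a kind and less mRNA per cell cannot be told apart.

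The promoters of FOS, EGR1 and JUN are shown because FOS and EGR1 were the members that moved between the hairpin groups, while JUN was the most abundant member. The 250 bases before the start site are given 5′ to 3′ on the gene's strand, from RefSeq (GRCh38.p14). The gene models behind the counts begin elsewhere: JUN spans 58780788 to 58784327 there, which takes in the whole printed JUN stretch, and FOS begins at 75278774, upstream of the TATAAA shown. RefSeq promoters were matched by symbol for 8 of the 10 members (FOS, FOSB, FOSL2, JUN, JUNB, JUND, EGR1 and IER2). Capitals mark matches, on either strand, to TGACTCA (the AP-1 element), TGACGTCA (the cAMP response element) and its core TGACGT, which it contains, TGACATCA (the element of the JUN promoter), the serum response factor site (CArG box), TATAAA and the EGR site GCGNGGGCG. The FOS promoter lies at chr14:75278578-75278827 on the plus strand, the EGR1 promoter at chr5:138465229-138465478 on the plus strand and the JUN promoter at chr1:58784048-58784297 on the minus strand.
FOS: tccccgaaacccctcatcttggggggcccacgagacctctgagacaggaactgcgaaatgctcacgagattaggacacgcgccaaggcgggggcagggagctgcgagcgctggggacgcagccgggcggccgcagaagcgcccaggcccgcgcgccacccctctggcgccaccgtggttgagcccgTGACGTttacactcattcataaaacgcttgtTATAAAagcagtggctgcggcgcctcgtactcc
EGR1: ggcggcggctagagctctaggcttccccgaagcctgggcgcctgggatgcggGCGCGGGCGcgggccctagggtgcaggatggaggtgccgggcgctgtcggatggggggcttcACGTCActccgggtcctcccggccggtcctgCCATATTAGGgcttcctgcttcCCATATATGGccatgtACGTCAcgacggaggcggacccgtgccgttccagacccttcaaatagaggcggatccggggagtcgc
JUN: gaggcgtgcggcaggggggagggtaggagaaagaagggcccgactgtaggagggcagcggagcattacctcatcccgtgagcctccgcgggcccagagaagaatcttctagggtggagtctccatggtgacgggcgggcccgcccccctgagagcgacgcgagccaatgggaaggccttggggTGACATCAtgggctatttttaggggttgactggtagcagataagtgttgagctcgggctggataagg

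Positions count back from the start site. FOS held TGACGT at −64 to −59 and TATAAA at −33 to −28. EGR1 held 2 CArG boxes, at −105 to −96 and −83 to −74, flanked by the core TGACGT, read on the opposite strand, at −136 to −131 and −67 to −62, and an EGR site at −198 to −190. JUN held TGACATCA at −67 to −60. Over windows of 300 bases that also take in the first 50 transcribed bases, TGACGT was present in 5 of the 8 member promoters (FOS, FOSB, FOSL2, JUND and EGR1) and in 7.98% of 35116 RefSeq promoters. TATAAA was found in FOS, FOSB and JUNB and in 11.5% of all promoters, and TGACTCA only in FOSL2 and in 4.95%. The CArG box was found in EGR1 alone among the 8 and in 1.29% of all promoters, TGACATCA in JUN and in 2.61%, the full TGACGTCA in JUND and in 1.85%, and the EGR site in EGR1 and in 9.43%. A match describes these letters in this window and is not a binding site, and no binding was measured here. Bases before −250 were not searched, so a CArG box further upstream of FOS or another member would not be found.

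Per length of annotated gene, the JUN family dominated. The FPKM scale divides fragments by annotated gene length and library size. The order between genes and the family shares rest on these lengths, such as 3238 bases for FOS, 5553 for FOSB and 3540 for JUN. On this scale JUN was highest in scramble cells at 59.4 ± 5.39 (SD, n = 3), followed by JUND at 43.4 ± 2.77, FOSL2 at 24.8 ± 2.43 and JUNB at 19.6 ± 3.57. Below them came IER2 at 11.3 ± 0.334, IER3 at 8.63 ± 1.04, EGR1 at 7.52 ± 0.812 and FOS at 2.32 ± 0.125 FPKM. FOSL1, at 0.375 ± 0.120 FPKM, and FOSB, at 0.173 ± 0.0313 FPKM, were near the bottom of the genes tested. Neighbours in this order were separate in all 3 scramble libraries except FOSL2 with JUNB and IER3 with EGR1, whose ranges overlapped. JUN ranked 651 and FOS 10107 by mean FPKM among the 17023 genes tested.

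The order was alike in the hairpin groups, with EGR1 as the main exception. In sh76 cells EGR1 stood at 13.4 ± 1.48 FPKM, above the mean of IER2 at 11.98 ± 0.408, although the libraries of both genes overlapped. In sh78 cells EGR1 was again below IER3, at 7.54 ± 1.51 against 8.85 ± 2.21 FPKM, with overlapping ranges, and FOSB and FOSL1 changed places within overlapping ranges. Of the summed FPKM of the 7 FOS and JUN genes, the 3 JUN genes took 81.6% ± 1.27 in scramble, 82.1% ± 1.47 in sh76 and 84.8% ± 1.43 in sh78. The lowest sh78 library (83.1%) lay above the highest of both other groups (82.4% and 83.0%). FOS itself took 1.45% to 1.63% of this mRNA in scramble, 2.15% to 2.50% in sh76 and 1.11% to 1.19% in sh78, and these ranges did not overlap. FOSL2 supplied most of the FOS family mRNA in every library.

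**Figure D1:**
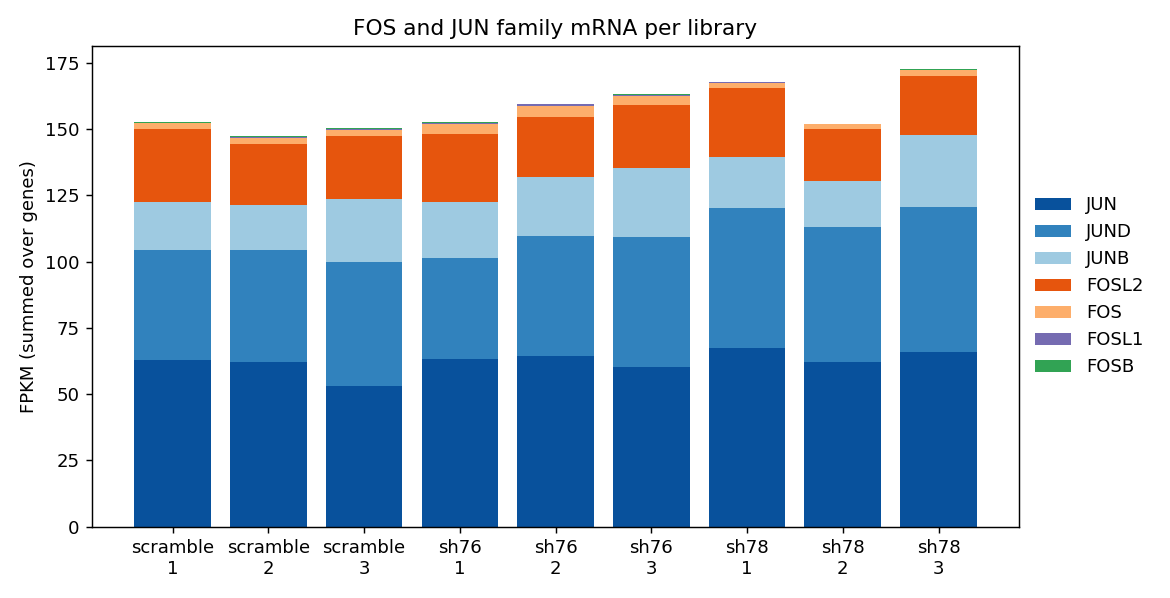
Stacked bars give the deposited FPKM of the 7 FOS and JUN family genes in each of the 9 libraries (x axis: group and replicate number; y axis: FPKM summed over genes). JUN and JUND make up most of every bar, and the totals run from 147.4 FPKM in scramble replicate 2 to 172.8 FPKM in sh78 replicate 3.

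FOS and EGR1 rose in sh76 cells, and no member was called lower. FOS (ENSG00000170345, chromosome 14, 75278774 to 75282230, plus strand, hg38), whose protein is the founding partner of JUN in AP-1, stood at 7.78, 7.86 and 7.06 CPM in scramble and at 12.3, 13.0 and 11.5 CPM in sh76. All sh76 libraries lay above all scramble libraries. The log2 fold change was 0.70 (SE 0.14, 1.62-fold, 95% interval 0.41 to 0.99 on the log2 scale) with an edgeR adjusted p of 0.0109, and the same-numbered ratios were positive in 3 of 3 pairs. This call was lost when scramble replicate 3 (adjusted p 0.0542) or sh76 replicate 2 (adjusted p 0.067) was left out of the edgeR fit.

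EGR1 (ENSG00000120738, chromosome 5, 138465490 to 138469315, plus strand, hg38) stood at 21.2, 24.0 and 26.1 CPM in scramble and at 37.4, 46.5 and 43.9 CPM in sh76. The lowest sh76 library was well above the highest scramble library. The log2 fold change was 0.84 (1.79-fold, SE 0.14, 95% interval 0.55 to 1.14; adjusted p 0.00417 by edgeR), and the call held in all 9 edgeR fits that each left out 1 library. Over all genes tested, 3.58% were called in this comparison, 1.43% higher and 2.16% lower, beside 2 of the 10 members called higher and 0 called lower. CPM ranges did not overlap for these 2 members and for 22.5% of all genes (10.8% higher, 11.7% lower). The members' median log2 fold change was 0.08, beside 0.01 over all genes tested. With the replicate number as a block, 3 members were called higher, JUNB being the third, and 20.4% of all genes were called, 9.63% higher and 10.7% lower.

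In sh78 cells, where less GPX3 mRNA was left, the main edgeR fit, without the replicate block, called no member against scramble (adjusted p under 0.05). Over all genes it called 4.41%, 1.85% higher and 2.56% lower. DESeq2 also called 0 members. Of the 10, 2 had an unadjusted edgeR p under 0.05, FOS (0.0471) and JUND (0.00468). By p they ranked 2891 and 989 among the 17023 genes tested, so such values were common over all genes. FOS stood at 6.09, 5.50 and 6.69 CPM, all below the scramble libraries, for a log2 fold change of −0.31 (adjusted p 0.278 by edgeR, SE 0.14). EGR1 stood at 18.7, 28.1 and 24.7 CPM, a range that enclosed the scramble values, with a log2 fold change of −0.00 (adjusted p 0.998 by edgeR, SE 0.14, 95% interval −0.31 to 0.30). FOS and JUND were the 2 members whose CPM ranges did not overlap between sh78 and scramble, beside 21.5% of all genes (10.2% higher, 11.2% lower). The replicate block called 3 members here, JUN and JUND higher and FOSL2 lower, beside 19.9% of all genes (9.79% higher, 10.1% lower).

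The plot of member levels shows that sh76 stands apart for FOS and EGR1. The sh76 group is one side of the comparison of sh78 with sh76 and of that of sh76 with scramble, so these comparisons share libraries. FOS in sh78 was 49.7% of its sh76 level, a log2 fold change of −1.01 (adjusted p 0.00106 by edgeR, SE 0.14, 95% interval −1.30 to −0.71), lower in 3 of 3 same-numbered pairs. EGR1 in sh78 was 55.7% of its sh76 level, a log2 fold change of −0.85 (adjusted p 0.0042 by edgeR, SE 0.14, 95% interval −1.14 to −0.55), also lower in 3 of 3 pairs. Both calls held in all 9 fits without 1 library. For both genes the difference between the hairpins is therefore itself past the threshold. In this comparison 0 members were called higher and 2 lower, beside 3.7% of all genes called, 1.97% higher and 1.72% lower. CPM ranges did not overlap for 4 members (FOS, FOSL1, JUND and EGR1) and for 21.8% of all genes (10.9% in each direction). The replicate block called 4 members, FOSL1 lower and JUND higher besides these 2, and 18.3% of all genes, 9.69% higher and 8.62% lower.

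**Figure D2:**
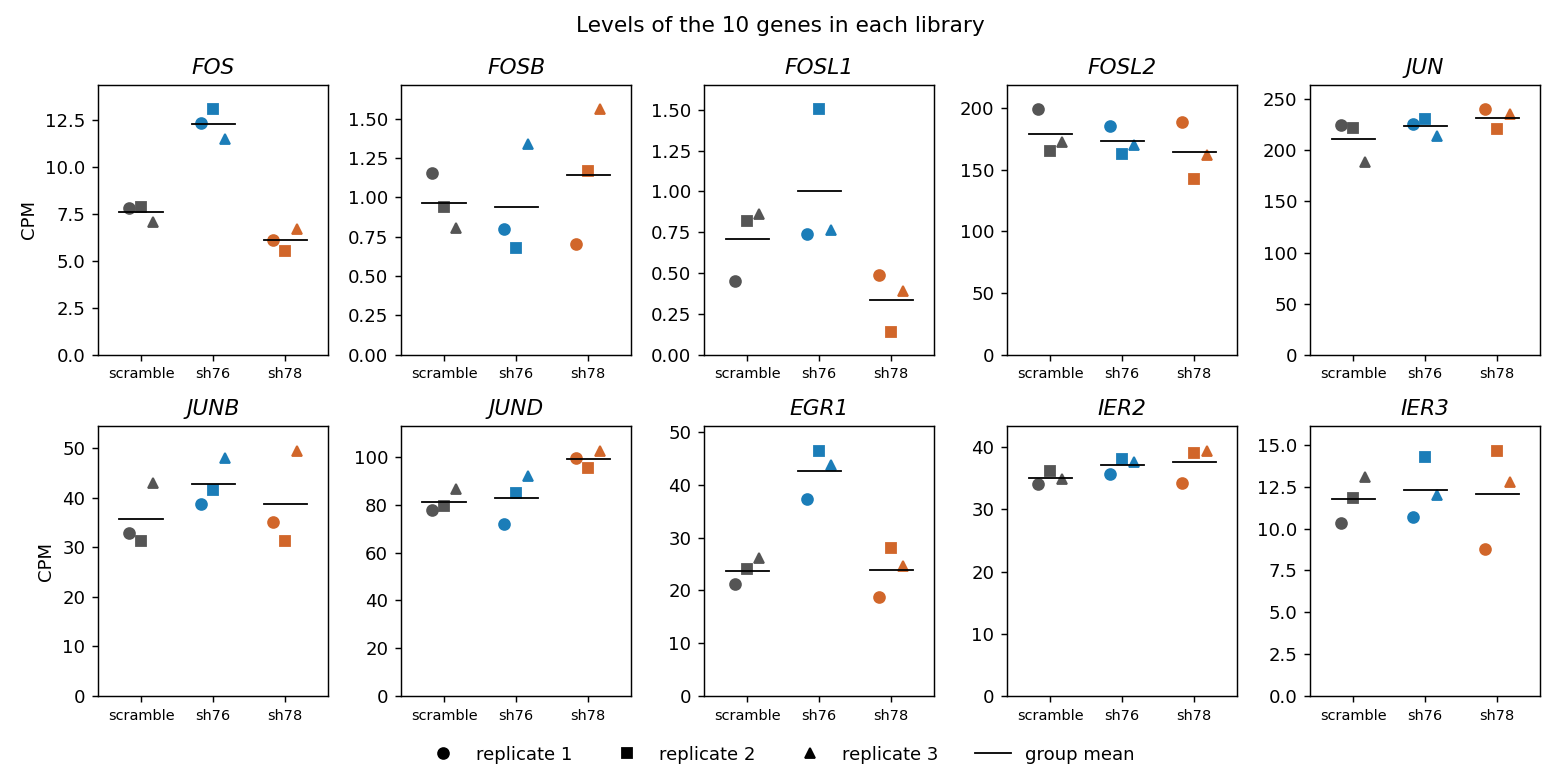
Each panel gives the CPM of 1 gene (y axis, from 0) in the 3 groups (x axis); symbols are the replicate numbers 1 to 3 and bars the group means. FOS runs from 11.5 to 13.0 CPM and EGR1 from 37.4 to 46.5 CPM in sh76, above every library of the other groups, while the other 8 genes overlap between sh76 and scramble.

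Fits added after seeing the data left out all 3 libraries of 1 replicate number. Without number 1, FOS and EGR1 were still called in sh76 (edgeR adjusted p 0.0212 and 0.000149) and in sh78 against sh76 (0.00291 and 0.000441). Without number 2 the adjusted p was 0.244 for FOS and 0.193 for EGR1 in sh76, and 0.123 and 0.12 in sh78 against sh76. Without number 3 it was 0.146 and 0.127 in sh76, and 0.0412 and 0.128 in sh78 against sh76. The sh76 log2 fold changes stayed between 0.67 and 0.71 for FOS and between 0.78 and 0.89 for EGR1. Over all genes, edgeR called 4 genes for sh76 without number 2 and 56 without number 3. GPX3, called lower in sh76 with all libraries (edgeR adjusted p 0.00264), was not called there without number 2 (0.0566) or 3 (0.0683).

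**Figure D3:**
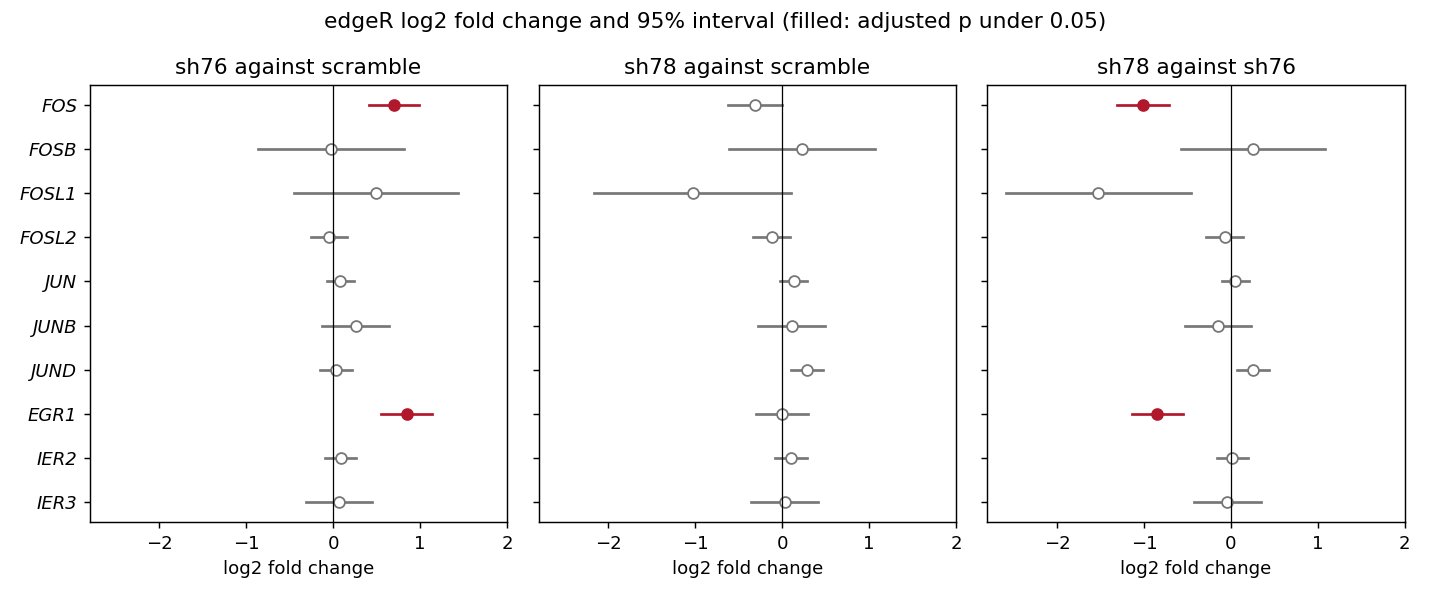
Points give the edgeR log2 fold change of each gene (y axis) in the 3 comparisons (panels; x axis: log2 fold change), and lines the 95% interval. Filled points, FOS and EGR1 in the left and right panels, have an adjusted p under 0.05; the intervals of FOSB and FOSL1 are the widest.

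Of the other FOS family members, FOSB and FOSL1 had few counts, and none was called between groups in the main edgeR fit. FOSL1 (FRA-1), an AP-1 partner often linked to cell migration, had 7, 14 and 15 counts in scramble, 12, 31 and 16 in sh76 and 9, 2 and 6 in sh78. All sh78 libraries were below all sh76 libraries on the CPM scale, with a log2 fold change of −1.52 (adjusted p 0.118 by edgeR, SE 0.50; 0.0284 with the replicate block). Counting error is large at these counts, and sh78 replicate 2 had only 2 counts. FOSB, a close relative of FOS, had 13 to 28 counts in every library and log2 fold changes of −0.03, 0.23 and 0.25 for sh76, sh78 and sh78 against sh76, with SEs of 0.39. FOSL2 (FRA-2), by far the most abundant FOS family mRNA, stood at 199, 165 and 172 CPM in scramble, 185, 163 and 170 CPM in sh76 and 188, 143 and 162 CPM in sh78. Its groups overlapped throughout, and its log2 fold changes were −0.05, −0.12 and −0.07; with the replicate block, sh78 was past the threshold (edgeR adjusted p 0.0479).

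Among the JUN family, JUND came closest to a call. JUND, the JUN protein known for high levels in resting cells, stood at 77.7, 79.6 and 86.8 CPM in scramble, 72.0, 85.04 and 92.1 CPM in sh76 and 99.8, 95.6 and 103 CPM in sh78. Every sh78 library was above every library of the other groups. The difference missed the threshold, at 0.29 on the log2 scale against scramble (SE 0.09, adjusted p 0.0805 by edgeR) and 0.26 against sh76 (SE 0.09, adjusted p 0.127). With the replicate block the adjusted p was 6.58e-05 and 0.000304, and JUND was higher in sh78 in 3 of 3 pairs of both comparisons. Without the filter on low counts the adjusted p was 0.0144 against scramble and 0.0415 against sh76, and without sh76 replicate 1 it was 0.0328 against scramble.

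JUN, the main DNA-binding partner of FOS, stood at 225, 222 and 188 CPM in scramble, 226, 231 and 214 CPM in sh76 and 240, 221 and 235 CPM in sh78. Its groups overlapped, with log2 fold changes of 0.08 (95% interval −0.07 to 0.23) for sh76 and 0.13 (−0.02 to 0.29) for sh78; the replicate block gave an edgeR adjusted p of 0.0346 for sh78. JUNB, which can restrain JUN, stood at 33.0, 31.3 and 43.1 CPM in scramble, 38.7, 41.5 and 48.1 CPM in sh76 and 35.1, 31.3 and 49.5 CPM in sh78. Replicate 3 was the highest library of every group. The sh76 log2 fold change was 0.26 (adjusted p 0.495 by edgeR, SE 0.17), and 0.00449 was the adjusted p with the replicate block. JUNB shares 259 exonic bases with HOOK2 on the opposite strand, which had 589 to 950 counts, and the libraries were not strand-specific.

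IER2 and IER3 were not called in any comparison. IER2 ranged from 34.0 to 36.1 CPM in scramble, 35.7 to 38.1 CPM in sh76 and 34.3 to 39.4 CPM in sh78. Its log2 fold changes were 0.09 (95% interval −0.09 to 0.27) for sh76 and 0.10 (−0.08 to 0.28) for sh78. IER3 ranged from 10.4 to 13.1, 10.7 to 14.3 and 8.78 to 14.6 CPM in the same order, and its log2 fold changes of 0.07 and 0.03 had intervals of −0.32 to 0.45 and −0.36 to 0.42. These intervals bound the differences that these libraries allow and do not show that the levels were equal.

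The replicate number, which the labels give as 1 to 3 in every group, also went with member levels. In an edgeR test of the replicate number with the group in the model, 5 of the 10 members were called, beside 28.8% of all genes. EGR1 was lowest in replicate 1 of every group, with replicate 2 higher than replicate 1 by 0.36 and replicate 3 by 0.30 on the log2 scale (edgeR adjusted p 0.000737). IER3 was also lowest in replicate 1 of every group, by 0.46 and 0.35 on the log2 scale (edgeR adjusted p 0.00638; 0.151 without sh78 replicate 1). FOSL2 went the other way and was highest in replicate 1 of every group, with log2 differences of −0.28 for replicate 2 and −0.18 for replicate 3 (edgeR adjusted p 1.51e-05).

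JUNB was highest in replicate 3 of every group, by 0.40 on the log2 scale over replicate 1 and by 0.43 over replicate 2 (edgeR adjusted p 2.94e-06). JUND was also highest in replicate 3 of every group, by 0.18 over replicate 1 (edgeR adjusted p 0.0252). The JUND call was lost without scramble replicate 1 or 3 or sh76 replicate 1 or 3 (adjusted p up to 0.243), with DESeq2 (adjusted p 0.0992) and on the FPKM scale (0.123 with limma). FOS, the member with the lowest level among those above 1 FPKM, did not differ by replicate number past the threshold (edgeR adjusted p 0.929), with log2 differences of 0.01, −0.05 and −0.06 between the numbers. JUN had an adjusted p of 0.121, which passed the threshold without sh78 replicate 2 (0.0279) or 3 (0.0124). What the numbers stand for is not given in the labels.

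**Figure D4:**
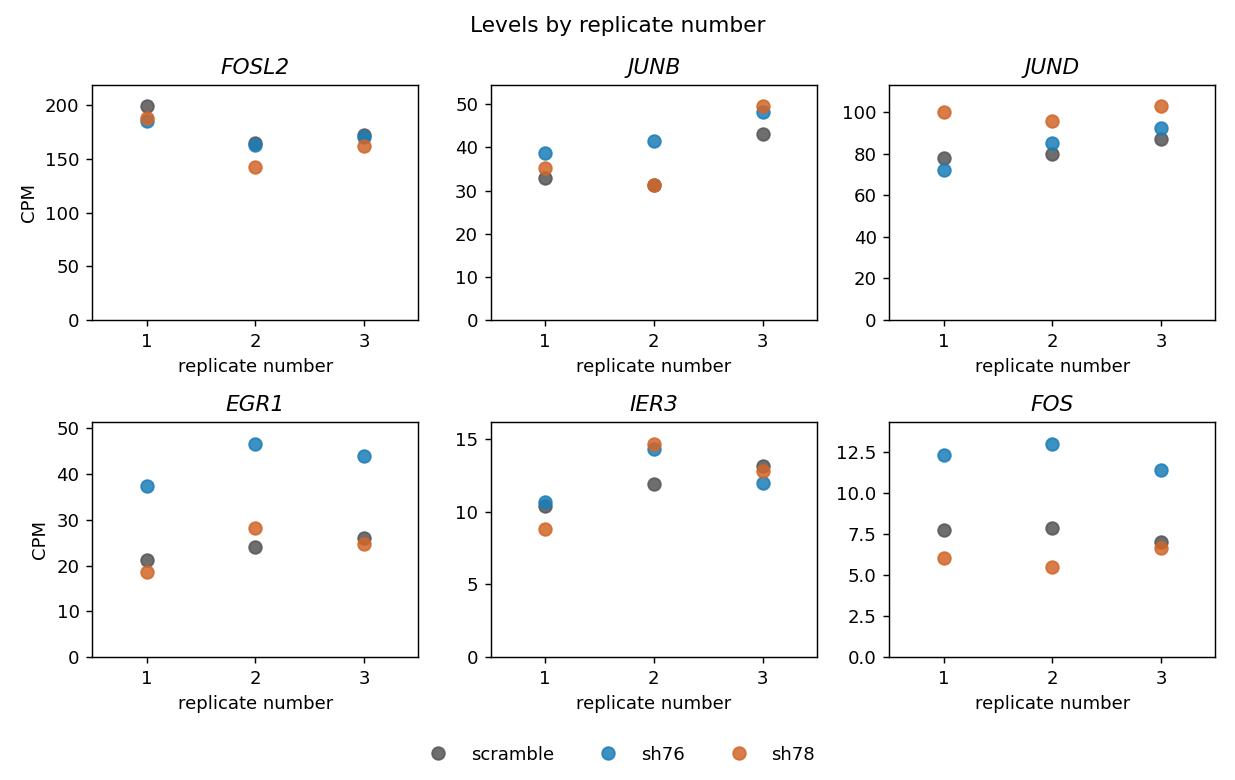
Each panel gives the CPM (y axis, from 0) of 1 gene by replicate number (x axis), with 1 point per group. JUNB is highest at number 3 and FOSL2 at number 1 in every group, EGR1 and IER3 are lowest at number 1, and FOS keeps its groups apart at every number.

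The wider pathway was read through 5 lists. Of 18 AP-1 dimer partners, leucine zipper genes that can pair with FOS or JUN proteins or their relatives, 14 were tested. BATF, BATF2, BATF3 and MAF were too low. Of the 14, 0 were called higher and 1 lower in sh76, the same in sh78, and 0 between the hairpins. The gene called lower was ATF4, the stress-response leucine zipper factor, with log2 fold changes of −0.27 (adjusted p 0.0161 by edgeR, SE 0.06) in sh76 and −0.37 (adjusted p 0.00189 by edgeR, SE 0.06) in sh78. The list's medians were −0.15 and −0.14, beside 0.01 over all genes in both. Leaving out sh76 replicate 1 or 2 ended the ATF4 call in sh76 (adjusted p up to 0.0944). Both ATF4 calls were lost without replicate number 2 (edgeR adjusted p 0.312 in sh76 and 0.141 in sh78). The sh76 call was also lost without number 3 (0.117). The replicate block called 0 higher and 5 lower with each hairpin and 0 and 2 in sh78 against sh76. The background for this and the other lists is the share of all genes called. Without the block it was 3.58% in sh76, 4.41% in sh78 and 3.7% in sh78 against sh76. With the block it was 20.4%, 19.9% and 18.3%. No list was tested as a set.

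Of 36 other immediate early genes tested, 2 were called higher and 0 lower in sh76, 1 higher and 2 lower in sh78, and 0 higher and 2 lower in sh78 against sh76. Median log2 fold changes were 0.08, −0.03 and −0.08, beside 0.01, 0.01 and 0.00 over all genes. Of all genes, 3.58%, 4.41% and 3.7% were called in the same order. ID3, an inhibitor of basic helix-loop-helix factors, rose with both hairpins, by 0.41 and 0.36 on the log2 scale (SE 0.07 and 0.08; edgeR adjusted p 0.00748 and 0.0125), and MCL1, a survival protein of the BCL2 family, rose by 0.26 (SE 0.06) in sh76. IER5, a regulator of heat shock factor activity, stood at 58.3, 48.8 and 60.2 CPM in scramble, 64.2, 52.3 and 57.4 CPM in sh76 and 36.3, 36.5 and 39.8 CPM in sh78, so that sh78 alone was low. IER5 fell by 0.57 on the log2 scale in sh78 (adjusted p 0.00437 by edgeR, SE 0.10) and by 0.63 against sh76 (adjusted p 0.00315), and both calls held in all 9 fits without 1 library. ID1, a relative of ID3, fell by 0.31 in sh78 (edgeR adjusted p 0.0366). The ID1 call was lost without scramble replicate 2 or 3, sh76 replicate 3 or sh78 replicate 2 or 3 (adjusted p up to 0.151). With the replicate block, 8 of the 36 were higher and 2 lower in sh76, 10 and 6 in sh78, and 3 and 10 in sh78 against sh76. MCL1 was then also called in sh78 (log2 fold change 0.13, edgeR adjusted p 0.0193) and in sh78 against sh76 (−0.13, edgeR adjusted p 0.0176). Both IER5 calls were lost without replicate number 2 (adjusted p 0.066 and 0.071) and without number 3 (0.114 and 0.0741). The ID3 call in sh78 was lost without scramble replicate 2 or sh78 replicate 2 (up to 0.0735). The MCL1 call in sh76 was lost without scramble replicate 2 or 3 or sh76 replicate 2 or 3 (up to 0.0918). Without replicate number 2, both ID3 calls (edgeR adjusted p 0.277 in sh76 and 0.269 in sh78) and the sh76 call of MCL1 (0.368) were lost. Without number 3 they were lost too (0.14, 0.136 and 0.227).

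Of 20 genes for MAP kinase phosphatases and feedback regulators, 2 were called higher and 0 lower in sh76. In sh78, and in sh78 against sh76, 1 was called each way. Beside these, 3.58%, 4.41% and 3.7% of all genes were called in sh76, sh78 and sh78 against sh76. The list's median log2 fold changes were 0.04, 0.05 and −0.15, beside 0.01, 0.01 and 0.00 over all genes. With the replicate block, 7 were higher and 0 lower in sh76, 3 and 2 in sh78, and 2 and 6 in sh78 against sh76. Among them were ETV4 in sh78 (log2 fold change −0.27, edgeR adjusted p 0.0131) and, in sh78 against sh76, DUSP10 (−0.68, adjusted p 0.00041) and DUSP4 (−0.57, adjusted p 0.0224). ETV4, an ETS factor downstream of ERK, stood at 25.7, 26.9 and 29.7 CPM in scramble, 34.0, 38.5 and 40.8 CPM in sh76 and 19.3, 27.0 and 22.1 CPM in sh78, so sh76 was the high group. ETV4 rose by 0.46 in sh76 (adjusted p 0.0477 by edgeR, SE 0.12) and was lower by 0.74 in sh78 than in sh76 (log2 fold change −0.74, SE 0.12, edgeR adjusted p 0.00398). DUSP10, a phosphatase of p38 and JNK, rose by 0.79 in sh76 (adjusted p 0.0267 by edgeR, SE 0.18). DUSP8, also a phosphatase of JNK and p38, rose by 0.53 in sh78 (adjusted p 0.0253 by edgeR, SE 0.12), and DUSP4, a nuclear MAP kinase phosphatase, fell by 0.69 in sh78 (adjusted p 0.0413 by edgeR, SE 0.18). Of these, the ETV4 difference between the hairpins held in all 9 fits without 1 library, but not without replicate number 2 (adjusted p 0.0853) or 3 (0.139). In sh76 the ETV4 call was kept in 3 of 9 (adjusted p up to 0.162; lost without any scramble library, sh76 replicate 2 or 3 or sh78 replicate 3) and that of DUSP10 in 5 of 9 (up to 0.111; lost without replicate 2 or 3 of scramble or sh76). In sh78 the DUSP8 call was kept in 5 of 9 (up to 0.117; lost without scramble replicate 2 or 3 or sh78 replicate 1 or 3) and that of DUSP4 in 1 of 9 (up to 0.139; kept without sh76 replicate 1). The DUSP4 call was also lost without the low-count filter (0.0782), with limma on both FPKM scales (0.0653 and 0.0864) and with only the 2 groups compared (0.0721).

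Among 28 MAP kinases, their activators and the serum response factor group, 2 were called higher and 1 lower in sh76 (edgeR). In sh78, 1 was called higher and 2 lower, and 0 were called between the hairpins. Beside these, 3.58%, 4.41% and 3.7% of all genes were called in sh76, sh78 and sh78 against sh76. The list's median log2 fold changes were −0.02, −0.02 and 0.00, beside 0.01, 0.01 and 0.00 over all genes. MAP2K7, which activates JNK, stood at 34.8, 32.3 and 34.9 CPM in scramble, 45.4, 45.8 and 48.2 CPM in sh76 and 46.2, 49.8 and 52.8 CPM in sh78. Both hairpin groups were above scramble in every library, by 0.45 and 0.55 on the log2 scale (SE 0.08 in both; edgeR adjusted p 0.00662 and 0.0015), and both calls held in all 9 fits without 1 library. They were lost without replicate number 2 (adjusted p 0.237 and 0.131) and without number 3 (0.122 and 0.0627). MAP2K4, the other JNK activator, rose by 0.37 in sh76 (edgeR adjusted p 0.036). MAPK9, which encodes JNK2, fell by 0.33 in sh76 and in sh78 (edgeR adjusted p 0.0442 and 0.0377), and MAPK3, which encodes ERK1, fell by 0.35 in sh78 (edgeR adjusted p 0.0479). Each of these calls was lost in most fits that left out 1 library, with adjusted p up to 0.187. MAP2K4 kept its call in 3 of 9 (without scramble replicate 1 or sh78 replicate 1 or 2). MAPK9 kept it in 2 of 9 in sh76 (without scramble replicate 1 or sh78 replicate 1). In sh78 MAPK9 also kept it in 2 of 9 (without scramble replicate 1 or sh76 replicate 1). MAPK3 kept it in 1 of 9 (without scramble replicate 1), and without sh76 replicate 1 its adjusted p rounded to 0.05. In these fits the log2 fold changes were 0.31 to 0.40 for MAP2K4 and −0.43 to −0.27 for MAPK3. For MAPK9 they were −0.39 to −0.29 in sh76 and −0.39 to −0.30 in sh78. The replicate block gave edgeR adjusted p of 6.72e-06 for MAP2K4, 0.000484 and 0.000523 for MAPK9, and 3.24e-05 for MAPK3. With the replicate block, 3 of the 28 were higher and 4 lower in sh76, 3 and 3 in sh78, and 2 and 3 in sh78 against sh76. MAP2K4 was then also called in sh78 (log2 fold change 0.23, adjusted p 0.00554 by edgeR), and MAPK3 in sh78 against sh76 (−0.20, adjusted p 0.0215 by edgeR).

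The list of textbook AP-1 target genes held 19 tested genes. In sh76, 2 were called higher and 0 lower; in sh78, 0 higher and 1 lower; in sh78 against sh76, 0 higher and 3 lower. The median log2 fold changes were 0.16, −0.35 and −0.44, beside 0.01, 0.01 and 0.00 over all genes. Of all genes, 3.58%, 4.41% and 3.7% were called in the same order. With the replicate block, 5 were higher and 2 lower in sh76, 1 and 6 in sh78, and 0 and 7 in sh78 against sh76. CD44, a hyaluronan receptor, stood at 31.6, 36.5 and 46.4 CPM in scramble, 54.3, 65.1 and 71.9 CPM in sh76 and 21.1, 22.8 and 29.9 CPM in sh78, so its 3 groups did not overlap. CD44 rose by 0.74 in sh76 (adjusted p 0.0304 by edgeR, SE 0.16) and had a log2 fold change of −1.38 in sh78 against sh76 (adjusted p 0.00128 by edgeR, SE 0.17); against scramble sh78 missed the threshold (−0.64, SE 0.17, edgeR adjusted p 0.0614; 2.01e-09 with the replicate block).

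PLAU, the urokinase protease, stood at 68.0, 66.8 and 78.6 CPM in scramble, 86.8, 110 and 103 CPM in sh76 and 47.7, 63.0 and 54.8 CPM in sh78, and its groups did not overlap either. PLAU rose by 0.50 in sh76 (adjusted p 0.0252 by edgeR, SE 0.11) and had a log2 fold change of −0.86 in sh78 against sh76 (adjusted p 0.000921 by edgeR, SE 0.11), the gene being named for the latter after its values were seen; in sh78 against scramble it was called only with the replicate block (−0.37, adjusted p 0.0915 without it and 0.000204 with it). Leaving out scramble replicate 1 or 2 or sh76 replicate 2 or 3 ended the sh76 calls of CD44 and PLAU (adjusted p up to 0.12 and 0.127), whereas their differences between the hairpins held in all 9 such fits. Those differences were lost without replicate number 2 (adjusted p 0.102 for CD44 and 0.0649 for PLAU), and that of PLAU also without number 3 (0.0715). The keratin KRT6A, at 27.2 to 35.7 CPM in scramble and 6.09 to 7.53 CPM in sh78, was the target gene called lower in sh78. PLAU shares 916 exonic bases with C10orf55 on the opposite strand (11 to 41 counts), and ETV4 shares 68 with DHX8 (2118 to 3201 counts).

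**Figure D5:**
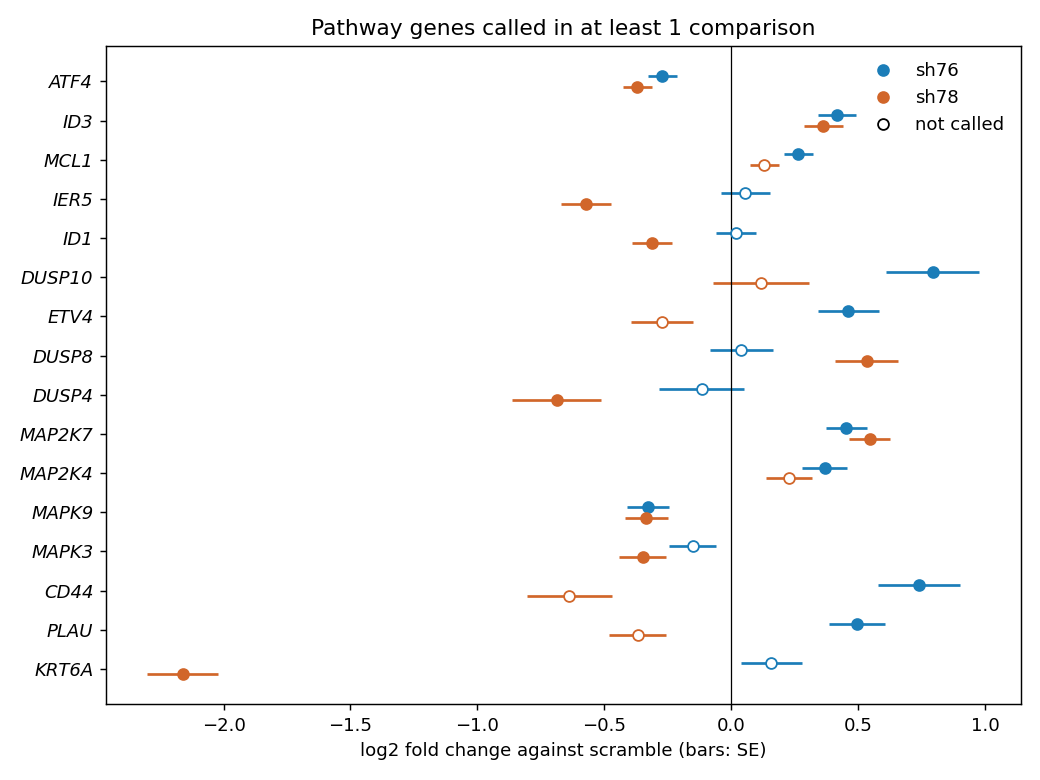
Points give the edgeR log2 fold change against scramble (x axis) with its SE for the list genes named by rule (y axis), in sh76 and sh78; open points were not called. MAP2K7 and ID3 lie to the right and ATF4 and MAPK9 to the left of 0 with both hairpins. ETV4, CD44, PLAU, IER5, ID1 and KRT6A lie on opposite sides. Of these, ETV4, CD44 and PLAU were called only in sh76, and IER5, ID1 and KRT6A only in sh78.

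The genes most like FOS and JUN were sought among 10954 other protein-coding genes with a mean of at least 5 CPM, by Pearson's r of log2 CPM over the 9 libraries, as a description. For FOS they were RBMXL1 and SLC26A2 (r 0.96 for both) and TBC1D13 (r 0.95). Within groups, after subtracting group means, these r values were −0.05, 0.18 and 0.35, so the likeness lay in the group levels: SLC26A2, a sulfate transporter, averaged 37.6 CPM in scramble, 62.5 CPM in sh76 and 32.8 CPM in sh78. For JUN they were PIP5K1C, DYNC1LI2 and RAB27A (r 0.93 for each), and within groups r was 0.91, 0.93 and 0.94, so that likeness lay also between libraries of 1 group. The points share libraries and depth, and these genes were picked as the highest of 10954 values of r.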

How the data were processed

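Poly-A mRNA was sequenced from 9 OVCAR3 samples as non-directional libraries, per the labels' protocols. The submitters' processing notes name HISAT2 2.0.5, featureCounts 1.5.0-p3 and hg38, and give neither settings nor a role for each. The authors deposited raw counts per gene and FPKM values (scaled by gene length and library depth) for 58735 genes. GENCODE release 29 held every identifier, and 99.98% had identical names and ends there. Total counts were 14652965 to 21327562 per library, and 1 CPM equalled 14.6 to 21.0 counts.

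The count model was edgeR 4.0.16 (R 4.3.3). After filterByExpr, with a minimum count of 10 and a minimum total of 15, 17023 genes remained, all 10 members among them. Libraries were scaled with TMM, and robust quasi-likelihood fits had 1 coefficient per group over 9 samples. The Benjamini-Hochberg adjustment ran over these 17023 genes, and calls needed an adjusted p under 0.05. The replicate number was tested with the group in the model. CPM uses TMM-scaled library sizes. Same-numbered samples of different groups deviated together: r was 0.14 to 0.39 in 9 of 9 pairs, beside −0.31 to 0.06 in 18 other pairs. The numbers were therefore taken to pair the samples. The main fits have no term for the number, so their calls, p-values and intervals do not use this pairing. Fits with the number as a block are printed where they change a call of a member or of a list gene named by rule. Within groups, chi-square per degree of freedom was 3.64 to 7.49, so no library duplicated another. The alternatives used DESeq2 1.42.0, limma 3.58.1 on log2(FPKM + 1) and log2(FPKM + 0.1), other scaling, no filter, only the groups compared, and fewer libraries. The fits were tested on simulated data.

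The members and lists were chosen with earlier results of these data known. Besides the members, the named genes were GPX3, up to 2 called genes at each end of a list in each comparison, and the 3 genes most like FOS or JUN.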

Additional observations from a re-analysis of the deposited data

Results flagged for a closer look

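Both results here are differences between the hairpins, tested directly by comparing sh78 with sh76 in edgeR. FOS was lower in sh78 than in sh76 by a log2 fold change of −1.008 (SE 0.14, adjusted p 0.00106), with 5.50 to 6.69 CPM in sh78 and 11.5 to 13.0 CPM in sh76, and it was lower in 3 of 3 same-numbered pairs. EGR1 was lower by −0.8451 (SE 0.14, adjusted p 0.0042), with 18.7 to 28.1 CPM in sh78 and 37.4 to 46.5 CPM in sh76, also in 3 of 3 pairs. The hairpin that left more GPX3 mRNA (41.9% of scramble, beside 23.1% for sh78) is the one with higher FOS and EGR1. Neither gene differed from scramble past the threshold in sh78. Groups of 3 samples are too small for a check of single outlying samples.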

How the results depend on the processing

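Under the replicate block, other size factors, no filter, DESeq2, both FPKM scales and only the 2 groups compared, FOS and EGR1, unlike several list genes, kept their direction and their calls in sh76 and in sh78 against sh76. With limma on both FPKM scales the sh76 calls of ETV4, MAP2K4, MAPK9, CD44 and PLAU and the sh78 calls of ID1, DUSP4, MAPK3 and MAPK9 were lost (adjusted p 0.0513 to 0.0913). The replicate block called 3467, 3388 and 3117 genes for sh76, sh78 and sh78 against sh76 (610, 750 and 629 without it), with 3 members for sh78 and 4 for sh78 against sh76. Without the low-count filter the counts were 1149, 1212 and 1125, with 1 member for sh78. The replicate-number test called 3125 genes with DESeq2, 2643 on log2(FPKM + 1) and 2651 on log2(FPKM + 0.1), beside 4905. Leaving out 1 library at a time gave 237 to 655, 418 to 810 and 273 to 780 genes, and 1 to 2, 0 to 1 and 2 to 2 members. Without replicate number 2 the counts were 4, 19 and 20, with 0 members for sh76 and 0 for sh78 against sh76; without number 3 they were 56, 112 and 65, with 0 and 1. Fewer samples were fitted there.

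Signs changed only for log2 fold changes that were never called. EGR1 in sh78 was 0.0006317 with DESeq2, 0.06747 without number 1 and 0.04219 without number 3. FOSB in sh76 was 0.2051 without number 1 and 0.145 without number 2, and in sh78 −0.1837 without number 3. JUND in sh76 was −0.009304 without number 2 and −0.001881 without number 3. IER3 was −0.05644 in sh76 and −0.1295 in sh78 without number 2, and 0.06042 in sh78 against sh76 without number 1; IER2 in sh78 against sh76 was −0.01138 without number 3. Leaving out 1 library gave, in sh76, −0.3856 to 0.1697 for FOSB, −0.1079 to 0.03131 for FOSL2, −0.05155 to 0.1214 for JUND and −0.05452 to 0.1564 for IER3. In sh78 it gave −0.06629 to 0.4981 for FOSB, −0.1087 to 0.262 for JUNB, −0.1393 to 0.1463 for EGR1 and −0.1366 to 0.216 for IER3. In sh78 against sh76 it gave −0.03357 to 0.613 for FOSB, −0.1815 to 0.02076 for FOSL2, −0.01714 to 0.07956 for IER2 and −0.1994 to 0.1531 for IER3. The cause was not tested. Besides the calls named with their members above, the block changed no call of a member. Depth limits FOSB and FOSL1, which had at most 31 counts in any library.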
